A study of Canis lupus familiaris with 14 samples.

Results

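Kinesin and tubulin genes were followed across canine lymphomas and normal lymph nodes. Members were all genes of the array whose single annotated symbol starts with KIF followed by a digit or C, or with TUBA, TUBB or TUBG alone or followed by a digit. This rule uses no measured value, and it gave 44 of 15115 genes, 36 kinesins and 8 tubulins, read by 91 probe sets. By their known roles, 12 of the kinesins were listed as mitotic, 16 as transport and 8 as other kinesins. KIF20A, KIF17 and CENPE were not analysed here.

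Kinesins are motor proteins that walk along microtubules or take microtubule ends apart, and microtubules are polymers of paired alpha- and beta-tubulin seeded by complexes that hold gamma-tubulin. One class of kinesins builds the mitotic spindle, moves chromosomes and acts in the final separation of the daughter cells, and many of its genes are transcribed mainly in G2 and M phase. The other main class carries vesicles, organelles and RNA in cells that need not divide, and in a lymph node both classes are read from lymphocytes and from the other cells of the node together.

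RNA came from lymph node aspirates of companion dogs with lymphoma, taken before an investigational PI3K inhibitor was given at 3 clinical sites, and from normal nodes of colony Beagles. Each sample was amplified and put on 1 GeneChip Canine Genome V2.0 array, giving 14 arrays from 13 dogs. The 7 B-cell lymphomas were RB07 and RB10 (Boxers), NE42 (Labrador Retriever), NE41 and FS21 (mixed breeds with Pitt Bull), RB03 (Pointer) and RB16 (Chesapeake Bay Retriever). The 3 T-cell lymphomas were NE45 (Golden Retriever), FS25 (Boxer) and FS22 (Beagle). Of these dogs, FS21, RB07, FS22 and FS25 had relapsed after chemotherapy. The normal arrays were 63 and 2970, 1 dog each, and 3024l and 3024r, 2 nodes of a single dog. Ages were not used here. A B-cell set of FS21, NE42, RB03 and RB16 was chosen by the study, in part on the expression profile of the same RNA, for comparison with 63, 2970 and 3024r. The lymphomas were also split into a class E-J (FS21, NE41, NE42, RB03, RB16, FS22) and a class K-N (RB07, RB10, FS25, NE45), named for letters in the study's key. That split was drawn from the profiles of these arrays, so differences between the classes are given as descriptions without a test.

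Colony Beagles were set against clinic dogs of mostly other breeds, so disease, breed and source cannot be told apart. Markers went against 3 labels. RB07 and RB10, labelled B-cell, had log2 signals of 12.11 and 12.54 for CD3E, which encodes part of the T-cell receptor, and of 8.06 and 8.11 for CD79A, which encodes part of the B-cell receptor. FS22, labelled T-cell, had 8.80 for CD3E and 10.09 for CD79A. Array 3024l stood apart in its 3' to 5' signal ratio for GAPDH, at 23.2 against 3.30 to 8.94 on the other 13 arrays. The paper reports that the RNA of all samples passed its integrity check, and the cause of the high ratio was not tested. The median signal of an array was between 85.5 and 131, with 47.2% to 55.7% of probe sets at a signal of 100 or more.

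Values are log2 of MAS 5.0 signals, which the authors scaled to a trimmed mean of 500 on each array, averaged over the probe sets of a gene. A gene was tested in a comparison if its signal reached 100 (log2 6.64) on at least 3 arrays. Over all 14 arrays 25 of the 44 members did so, made up of 9 mitotic, 9 transport and 1 other kinesin and 6 tubulins. The filter lets in a member that is bright in 1 group only, so counts over the 25 are not counts over the family. Averaged over its probe sets, 11 of the 19 members left out reached a signal of 100 on 1 or 2 arrays and 8 on none. The 8 were TUBB3, the beta-tubulin typical of neurons, KIF1A, a motor of synaptic vesicle precursors, and KIF2B, KIF6, KIF19, KIF24, KIF26B and KIFC3. Such an average can hide a bright probe set among dim ones, and 9 of the 19 members had a probe set at 100 or more on at least 3 arrays, KIF13B, KIF1A, KIF2C and TUBB3 on 14, 13, 12 and 9 arrays.

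Every mitotic kinesin tested had a higher mean in lymphoma than in normal nodes, and KIF18A and KIF23 passed the test over all genes. The 10 lymphomas were set against 3 normal dogs, 3024l and 3024r being averaged into 1 value. Of the 25 members tested, 2 rose in limma's test (adjusted p under 0.05), a share to be read against 1.03% of all 9400 genes tested. None of the 25 fell, beside 2.6% of all genes. After quantile normalization the split of all calls moved to 150 higher and 229 lower, against 97 higher and 244 lower as scaled by the authors. At an unadjusted p under 0.05 there were 10 of the 25 members and 1754 of all genes. The methods' t-test on the same values called 4 members, KIF15, KIF18A, KIF20B and KIF23.

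KIF18A shortens kinetochore microtubules and damps the movement of chromosomes at the spindle equator. Its log2 signal ran from 7.48 in RB07 to 9.10 in NE45 over the 10 lymphomas, with a median of 8.37, against 7.09 in 63, 6.73 in 2970, 7.30 in 3024l and 6.64 in 3024r. Every lymphoma lay above every normal array, RB07 by the smallest margin. The mean was 1.38 higher in lymphoma on the log2 scale (standard error 0.32, limma adjusted p = 0.0366), a 2.60-fold difference. In bulk RNA, fewer cells of a type and less RNA per cell cannot be told apart, and this holds for every value given here.

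KIF23 is the motor of centralspindlin, the complex that bundles microtubules between the separating chromosomes before the cell is cut. Its log2 signal was between 9.09 in NE41 and 10.59 in RB16 in lymphoma, with a median of 10.08, against 8.22 in 63, 8.68 in 2970, 8.78 in 3024l and 9.10 in 3024r. NE41 lay just below 3024r and every other lymphoma above all 4 normal arrays. The difference was 1.40 (standard error 0.32, limma adjusted p = 0.0343), or 2.65-fold.

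Both calls rested on a small normal group, and so did those over all genes, which numbered 341, and 87 without 63 and 3 without 2970. Without normal dog 63 the adjusted p was 0.100 for KIF18A and 0.144 for KIF23, and without 2970 it was 0.199 and 0.173, so neither passed. Without RB16 or NE42 the adjusted p of KIF18A was 0.0503 and 0.0520, and with 3024l alone for its dog it was 0.0641.

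KIF15, which works beside KIF11 in holding the spindle poles apart, had the lowest signals of the lymphomas in RB03 (8.66) and FS21 (8.92) and the highest in NE45 (10.77), with a median of 9.55. The value of FS21 was low through a dim probe set, at 1.08 there, against 12.36 on its brightest. The normal arrays gave 8.15, 8.09, 7.64 and 8.56 in 63, 2970, 3024l and 3024r. All lymphomas were thus above all normal arrays, with a difference of 1.50 (standard error 0.40) and an adjusted p of 0.0557 from limma, just above the threshold of 0.05. KIF11, the plus-end motor that pushes spindle poles apart, ranged from 8.89 in NE41 to 11.57 in NE45, with a median of 10.33, against 8.63, 9.10, 9.67 and 9.02 in 63, 2970, 3024l and 3024r. NE41 and RB10 (9.18) lay within the normal range and the other 8 lymphomas above it, and the difference of 1.18 (standard error 0.45) had a limma adjusted p of 0.173.

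KIF20B, a motor of the central spindle and of the late steps of cell division, ranged from 9.58 in RB10 to 12.21 in RB03, with a median of 11.78, against 10.42 in 63, 9.96 in 2970, 10.02 in 3024l and 9.63 in 3024r. RB10 lay below all normal arrays and the other 9 lymphomas above them. The difference over the 10 lymphomas was 1.35 (standard error 0.49, limma adjusted p = 0.151). The remaining 4 mitotic kinesins tested did not pass either. Their differences were 1.72 for KIF14, a motor of cytokinesis, 1.14 for KIF4A, a chromosome-bound motor, 1.08 for KIF22, which pushes chromosome arms away from the poles, and 1.06 for KIFC1, the minus-end motor that focuses spindle poles. Their adjusted p lay between 0.112 for KIFC1 and 0.395 for KIF4A.

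All 9 mitotic kinesins tested had a positive difference, with a median of 1.35 against -0.03 over all genes tested. Without the filter the 12 mitotic kinesins also all had positive differences, with a median of 1.27. In the B-cell set 11 of the 12 did, with a median of 1.38. Averaged over the 9 genes, the log2 level was between 8.22 in RB10 and 9.69 in NE45 in lymphoma, against 7.08 to 7.48 on the 4 normal arrays. The 3 mitotic kinesins that did not reach the filter were KIF2C, KIF18B and KIF2B.

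**Figure D1:**
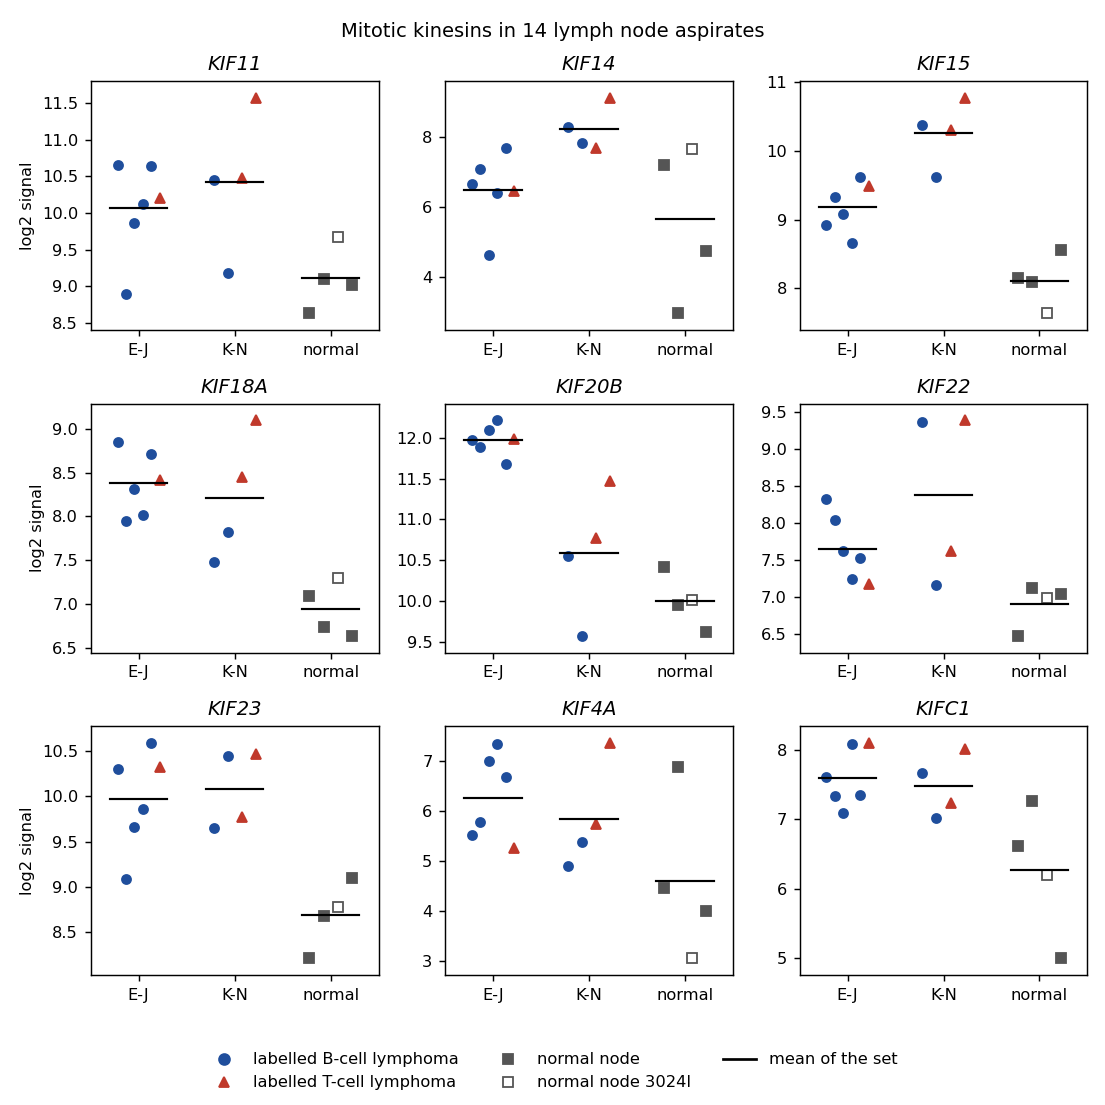
Log2 signal (y axis) of mitotic kinesins on each array, by class E-J, class K-N and normal nodes, 1 point per array with the group mean as a bar. KIF15, KIF18A and KIF22 show no overlap between lymphoma and normal arrays, and KIF20B is highest in class E-J.

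KIF4A depended on which probe sets were averaged. When only probe sets at 100 or more on at least 3 arrays were kept, a setting chosen after seeing the data, its difference was 1.55 (standard error 0.34, limma adjusted p = 0.0318) in the 10 lymphomas and 1.19 (adjusted p = 0.0368) in the B-cell set. The other probe set of KIF4A was under 100 on all 14 arrays. KIF2C, which takes apart microtubule ends at kinetochores, entered the test in that setting with a difference of 1.05 (limma adjusted p = 0.364).

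KIF1A, a transport kinesin, was left out of the test by its average over 5 probe sets, of which 1 was at 100 or more on 13 arrays. On that probe set the lymphomas were between 7.55 in FS25 and 10.74 in RB03, with a median of 9.37, against 8.40 in 63, 7.96 in 2970, 5.31 in 3024l and 8.34 in 3024r. All of class E-J lay above the normal arrays, by 1.97 on average, and class K-N by 1.36 with RB10 and FS25 within the normal range. The difference was 1.50 in the 10 lymphomas (standard error 0.56, limma adjusted p = 0.161) and 1.46 in the B-cell set (standard error 0.41, adjusted p = 0.0618), in the same setting chosen after seeing the data.

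In the B-cell set 4 mitotic kinesins and 1 beta-tubulin rose. These were KIF20B, KIF18A, KIF11, KIF23 and TUBB2A, 5 of 22 members tested, to be read against 3.48% of the 8295 genes tested, and none of the 22 fell, beside 7.39% of all genes. All calls split into 289 higher and 613 lower here, and into 408 higher and 524 lower after quantile normalization. At an unadjusted p under 0.05 there were 11 members and 2487 genes. The methods' t-test, at the threshold of 0.05, called no member here and 8 of all genes. The paper used a looser false discovery rate and another set of genes, so these counts are not its own. The normal arrays of this comparison are also in the comparison of all lymphomas, so the 2 sets of values are not independent.

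KIF20B had log2 signals of 11.97 in FS21, 12.09 in NE42, 12.21 in RB03 and 11.68 in RB16, against 10.42, 9.96 and 9.63 in 63, 2970 and 3024r. All 4 lymphomas lay well above the highest normal node, and their spread was smaller than that gap. The difference of 1.98 (standard error 0.27, limma adjusted p = 0.0101) was 3.96-fold. KIF18A was at 8.85, 8.31, 8.01 and 8.72 in FS21, NE42, RB03 and RB16, against 7.09, 6.73 and 6.64 in the 3 normal nodes, a 3.14-fold difference (log2 1.65, standard error 0.28, adjusted p = 0.0174).

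KIF11 was at 10.66, 9.87, 10.13 and 10.64 in the 4 lymphomas, against 8.63, 9.10 and 9.02 in the normal nodes (difference 1.41, standard error 0.29, limma adjusted p = 0.0266). KIF23 was at 10.29, 9.66, 9.86 and 10.59, against 8.22, 8.68 and 9.10 (difference 1.44, standard error 0.33, limma adjusted p = 0.0346). For neither gene did the groups overlap. KIF15 was also without overlap, but its difference of 0.80 had an adjusted p of 0.113.

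Few of these calls held when a normal node was left out, when the 902 genes called in all became 70 without 63, 15 without 2970 and 25 without 3024r. Without 63 KIF20B alone passed, and without 2970 or without 3024r none of the 5 did. With 3024l in place of 3024r, KIF20B alone passed. Without FS21 the calls of KIF23 and TUBB2A were lost, without NE42 or RB03 that of TUBB2A, and without RB16 that of KIF23. Without RB03, KIF3B passed as lower.

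The transport kinesins had differences of both signs. None of the 9 tested passed in the 10 lymphomas, with 6 positive differences and a median of 0.18, and without the filter 10 of 16 were positive with a median of 0.11. In the B-cell set 4 of 16 were positive without the filter, with a median of -0.14. KIF26A was listed with the transport kinesins although it is an atypical kinesin without motor activity. Its difference was 1.21 (standard error 0.49, limma adjusted p = 0.194), with lymphomas between 6.29 in RB10 and 7.86 in RB03 (median 6.99) and normal arrays at 4.01, 6.62, 6.70 and 6.65 in 63, 2970, 3024l and 3024r. The value of 63 was thus far below the next normal array, while the other 3 normal arrays lay within the lymphoma range.

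KIF13A, a motor that carries recycling endosomes, also had a difference of 1.21 (standard error 0.53, limma adjusted p = 0.239). Its lymphomas were between 6.53 in NE42 and 8.53 in RB16, with a median of 7.77, and its normal arrays at 7.33, 7.11, 2.26 and 7.57 in 63, 2970, 3024l and 3024r. Here the 3024l array, which stood apart in its GAPDH ratio, held the low value. With 3024r alone for that dog the difference was 0.33. KIF5A, a kinesin-1 heavy chain best known from neurons, had a difference of 0.58 (standard error 0.48, adjusted p = 0.554), with lymphomas between 4.97 in NE42 and 7.43 in RB07 (median 6.61) against 6.14, 5.54, 5.94 and 5.66.

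KIF5B, the kinesin-1 heavy chain of most cells, and KIF3B, a subunit of the kinesin-2 motor with KIF3A, are described because of their values. In the 10 lymphomas their differences were -0.26 and -0.40. In the B-cell set KIF3B was at 7.98, 7.71, 8.53 and 7.84 in FS21, NE42, RB03 and RB16, against 9.14, 9.28 and 8.78 in the normal nodes, with no overlap and a difference of -1.06 (standard error 0.28, limma adjusted p = 0.0512). KIF2A, counted among the other kinesins because it takes apart microtubules in neurons as well as at spindle poles, was between 11.15 in NE41 and 12.10 in NE45 in lymphoma (median 11.48), against 10.79, 11.54, 11.25 and 11.13 in 63, 2970, 3024l and 3024r. The groups overlapped, and the difference was 0.40 (standard error 0.26, limma adjusted p = 0.426).

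**Figure D2:**
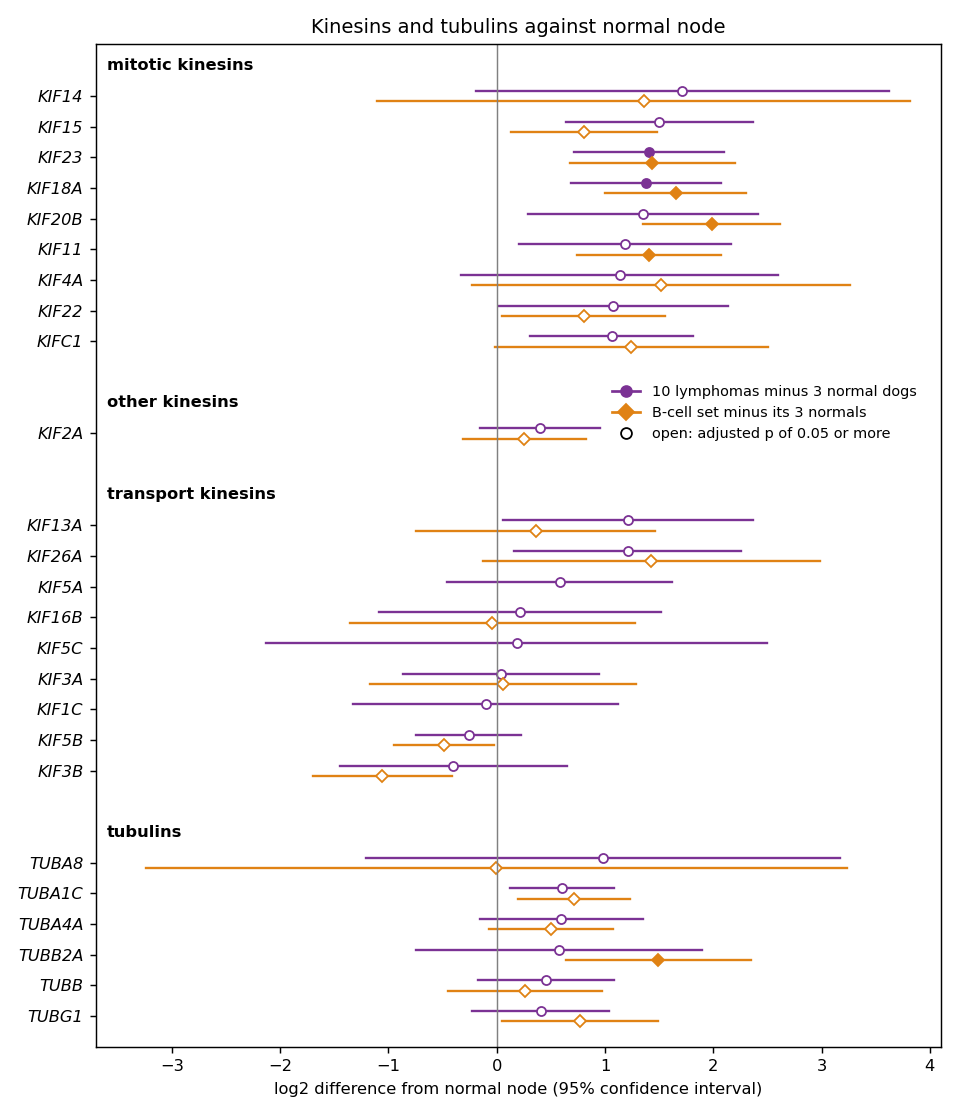
Log2 differences (x axis) of the members tested, down the page by role, for the 10 lymphomas and for the B-cell set, each minus its normal nodes, with 95% intervals that are not adjusted for the number of genes. The estimates of the mitotic kinesins lie to the right of 0 in both comparisons, and those of the transport kinesins on both sides.

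The tubulins differed by less than the mitotic kinesins. None of the 6 tested passed in the 10 lymphomas, though all 6 differences were positive, with a median of 0.59, and without the filter 7 of 8 were positive with a median of 0.52. In the B-cell set 5 of 8 were positive without the filter, with a median of 0.38. The mean level of the 6 was between 10.29 in FS21 and 10.79 in RB03 in lymphoma, against 9.80 to 10.23 on the normal arrays. FS21 was low through TUBA8, at 1.74 there. Of the 13 tubulin probe sets, 7 are of a type designed to be shared by several transcripts, so near-identical tubulins may be read together.

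TUBA1C, an alpha-tubulin of dividing and other cells, was between 14.14 in RB10 and 15.00 in RB07 in lymphoma (median 14.52), against 13.97, 13.61, 14.46 and 13.79 in 63, 2970, 3024l and 3024r. Only 3024l lay within the lymphoma range. The difference was 0.60 (standard error 0.22, limma adjusted p = 0.154), and it was 0.72 in the B-cell set (adjusted p = 0.0819). TUBA4A, an alpha-tubulin that is abundant in platelets and neurons, was between 10.77 in NE41 and 12.69 in NE45 (median 11.64), against 10.92, 11.01, 11.27 and 10.75, with overlapping groups and a difference of 0.60 (standard error 0.35, limma adjusted p = 0.382). These are averages of 2 probe sets of very unlike level. The dimmer ran from 6.88 in NE41 to 9.73 in NE45. On the brighter, RB07, RB10, FS25 and NE45 of class K-N were at 15.45, 15.42, 15.51 and 15.65. Every other array was lower there, the highest being 3024l at 14.92.

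TUBA8 was dim, with lymphomas between 1.74 in FS21 and 7.50 in RB03 (median 6.58) and normal arrays at 6.72, 5.93, 1.88 and 3.95. Values of this size lie mostly under a signal of 100, and its difference of 0.98 had a standard error of 1.02. TUBB, a beta-tubulin found in most cells, was between 10.63 in RB03 and 12.07 in NE45 (median 11.42), against 10.57, 10.98, 11.07 and 11.13. The groups overlapped, and the difference of 0.46 (standard error 0.29) had a limma adjusted p of 0.424. TUBG1, the gamma-tubulin of microtubule-organising centres, was between 7.37 in NE45 and 8.57 in FS21 (median 7.90), against 7.86, 6.95, 8.00 and 7.52, and its difference of 0.41 (standard error 0.29) had an adjusted p of 0.488.

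TUBB2A, a beta-tubulin, rose in the B-cell set but did not pass in the 10 lymphomas. It was at 13.57, 12.86, 12.87 and 12.09 in FS21, NE42, RB03 and RB16, against 11.35, 11.07 and 11.64 in 63, 2970 and 3024r, so that the B-cell set lay above its normal nodes in every case, by 1.49 on the log2 scale or 2.82-fold (standard error 0.37, limma adjusted p = 0.0433). The normal array left out of that comparison, 3024l, was at 13.22, above 3 of the 4 lymphomas. With it in place of 3024r the difference was 0.97 (adjusted p = 0.355). Over the 10 lymphomas against the 3 dogs the difference was 0.58 (standard error 0.61, limma adjusted p = 0.665).

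No member passed the test between B-cell and T-cell lymphoma by the labels. In 7 B-cell against 3 T-cell lymphomas limma called 0 of 25 members and 0% of the 8567 genes tested as higher and 0% as lower. At an unadjusted p under 0.05 there were 2 members and 313 genes, and the methods' t-test called no gene after adjustment and 295 before it. The 2 members were KIF3B (difference -1.17, 95% interval -2.14 to -0.20, limma adjusted p = 0.956) and KIF5C, a neuronal kinesin-1 heavy chain (-2.41, interval -4.57 to -0.24, same adjusted p), both lower in B-cell lymphoma. The medians were -0.33 for mitotic kinesins, -0.39 for transport kinesins and -0.19 for tubulins. The intervals of KIF18A (-1.25 to 0.26) and KIF23 (-1.03 to 0.54) leave room for a difference in either direction.

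Leaving out RB07, RB10 and FS22, whose markers went against their labels, left 5 B-cell lymphomas that are all in class E-J and 2 T-cell lymphomas that are both in class K-N. The labels then follow the split that was drawn from these profiles, so the values are given without a test. KIF3B had a mean of 7.99 in the 5 B-cell and 9.90 in the 2 T-cell lymphomas, a difference of -1.91. The difference was 1.77 for TUBB2A and -1.42 for KIF15.

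The members that stood apart from the normal nodes were listed for class E-J and class K-N. In class E-J, 5 of 25 members had every array above all 4 normal arrays (KIF15, KIF18A, KIF20B, KIF22 and KIF26A), beside 7.26% of all 9400 genes, and none had every array below, beside 7.97%. In class K-N, 9 members were above (KIF14, KIF15, KIF18A, KIF22, KIF23, KIF2A, KIF5A, TUBA4A and TUBB), beside 6.93%, and none below, beside 9.12%. Of these, KIF5A passed the filter through lymphomas alone. It was under a signal of 100 on all 4 normal arrays, and also in RB10 (6.50) and NE45 (6.29) of class K-N. KIF15, KIF18A and KIF22 were thus above the normal arrays in both classes, whereas with arrays centred on their median KIFC1 alone was. KIF20B and TUBB2A were higher in all of class E-J than in all of class K-N, 2 of 25 beside 6.26%, and 6 members were lower (KIF14, KIF15, KIF2A, KIF3A, KIF3B and KIF5B), beside 4.45%. The 2 higher members are thus near the share of all genes.

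Some of these counts moved in settings chosen after seeing the data. The shares of all genes in these settings were not computed. With arrays centred on their median, 4 members were above the normal arrays in class E-J and 5 in class K-N, against 5 and 9 as scaled by the authors. With that centring KIF15 and KIF3B alone remained lower in class E-J than in class K-N. KIF3B and KIF5B lay below all normal arrays in class E-J with that centring and also without 3024l, and KIF3B alone did after quantile normalization. When only probe sets at 100 or more on at least 3 arrays were kept, KIF13B lay below the normal arrays in class K-N. KIF20B and TUBB2A were higher in class E-J than in class K-N in each of these 4 settings.

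KIF20B had means 1.96 above the normal arrays in class E-J and 0.59 above them in class K-N. Its 6 arrays of class E-J lay between 11.68 in RB16 and 12.21 in RB03, with a median of 11.98, and those of class K-N were at 10.55, 9.58, 10.77 and 11.47 in RB07, RB10, FS25 and NE45. FS22, labelled T-cell, was at 11.99 with the rest of class E-J, while RB07 and RB10, labelled B-cell, were at the low end of class K-N. TUBB2A followed the same split, with class E-J between 12.09 in RB16 and 13.69 in NE41 and a median of 12.87, and class K-N at 11.16, 10.86, 11.45 and 11.03. TUBB2A differed from the normal arrays by 1.09 in class E-J and by -0.69 in class K-N, with 3024l among the normal arrays at 13.22.

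KIF15 ran the other way, between 8.66 and 9.61 in class E-J against 10.37, 9.61, 10.30 and 10.77 in RB07, RB10, FS25 and NE45. KIF3B did so too, between 7.71 and 8.53 in class E-J against 9.37, 8.55, 9.77 and 10.02. In both genes RB10 of class K-N lay barely above the highest array of class E-J. For KIF15 that gap rested on the average over its 5 probe sets, where a probe set dim on most arrays was at 1.08 in FS21. On the brightest probe set FS21 was at 12.36 and RB10 at 11.82. The classes overlapped in KIF15 on each probe set taken alone. KIF3B differed from the normal arrays by -0.84 in class E-J and by 0.51 in class K-N, and its partner KIF3A by -0.24 and 0.85. KIF14 was at 8.28, 7.82, 7.68 and 9.10 in class K-N, against 7.19, 2.98, 7.65 and 4.76 on the normal arrays 63, 2970, 3024l and 3024r, with 2970 and 3024r under a signal of 100.

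By role, the median difference from the normal arrays was 1.28 in class E-J and 1.31 in class K-N for the mitotic kinesins, -0.09 and 0.66 for the transport kinesins, and 0.53 and 0.60 for the tubulins. Over all genes it was 0.05 and -0.02. Between the classes the median difference of the mitotic kinesins, class E-J minus class K-N, was -0.11, made up of values as far apart as 1.38 for KIF20B and -1.74 for KIF14.

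**Figure D3:**
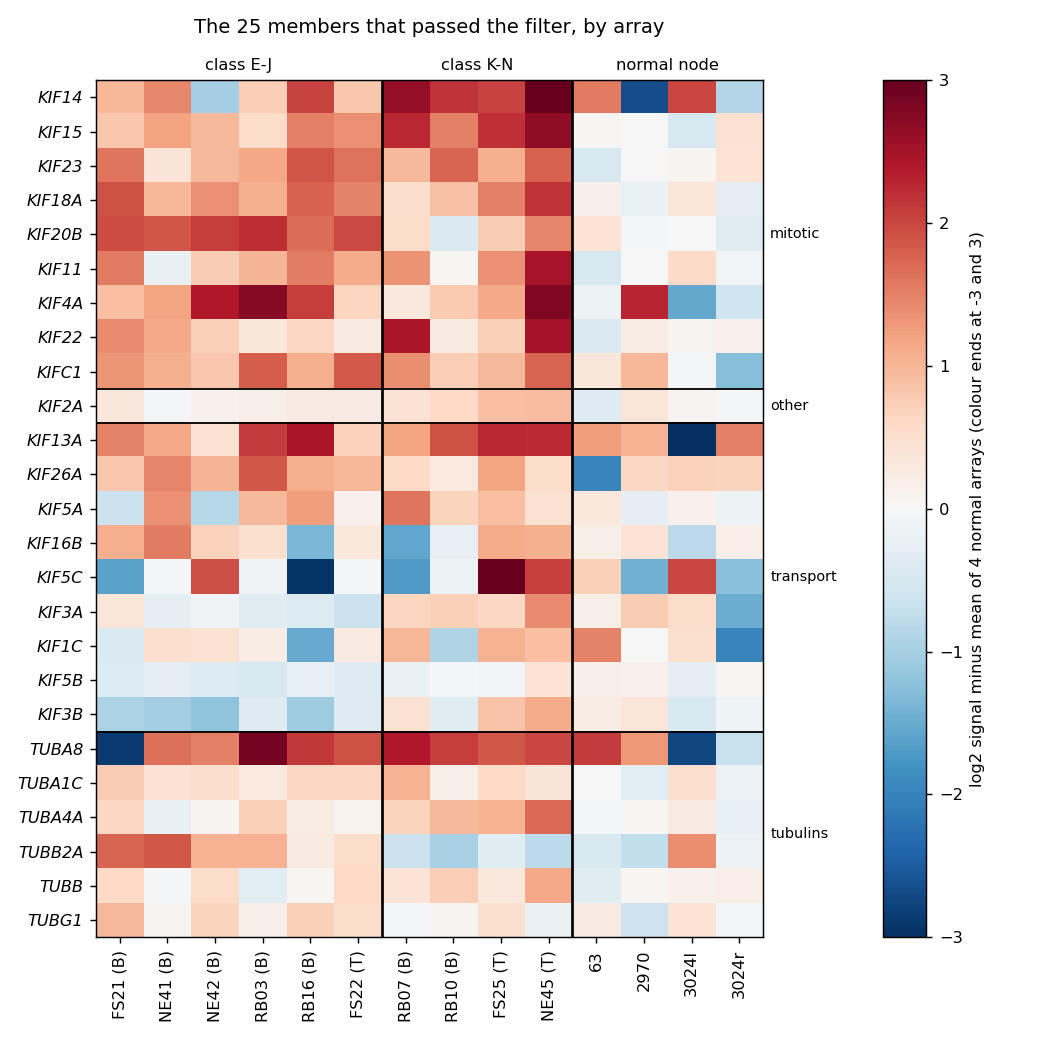
Log2 signal of each member that passed the filter (one per line, by role) minus its mean over the normal arrays, on each array (columns, class E-J, class K-N and normal nodes), on a colour scale from lower to higher than the normal mean. The mitotic kinesins are higher than the normal mean on nearly all lymphoma arrays, and the low single values of KIF13A on 3024l and KIF26A on 63 stand out among the normal nodes.

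**Figure D4:**
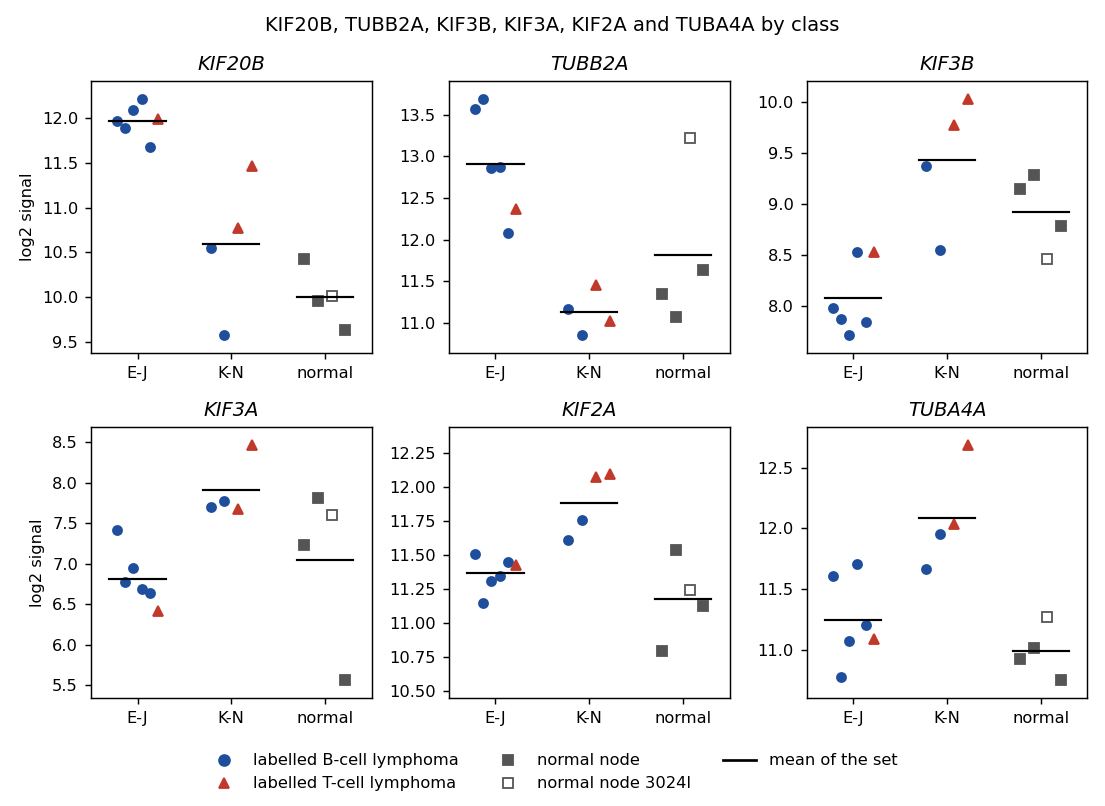
Log2 signal (y axis) of KIF20B, TUBB2A, KIF3B, KIF3A, KIF2A and TUBA4A on each array, in class E-J, class K-N and normal nodes, 1 point per array and the group mean as a bar. KIF20B and TUBB2A are higher in class E-J, with the 3024l array of TUBB2A at 13.22 among the normal nodes. KIF3B, KIF3A and KIF2A are higher in class K-N, and the classes overlap in TUBA4A as averaged over its 2 probe sets.

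Genes of proteins that work with the spindle kinesins were followed as lists. Counts called in these and in the marker lists below are to be read against the shares of all genes. These were 1.03% higher and 2.6% lower in the 10 lymphomas, and 3.48% and 7.39% in the B-cell set. Of 27 spindle partners tested in the 10 lymphomas, 5 rose and none fell, with a median of 1.12. Those named by rank were SPC25 and NDC80, parts of the kinetochore complex that grips microtubules (differences 2.75 and 1.32, limma adjusted p = 0.0293 and 0.0491), TPX2, which builds microtubules around chromosomes (1.66, 0.0306), and RACGAP1, the partner of KIF23 in centralspindlin (1.55, 0.0475). Of 25 tested in the B-cell set, 7 rose, with a median of 1.04. Of the transport partners (kinesin light chains, dynein, dynactin and adaptors), none of 27 passed, with a median of 0.07, and none of 26 in the B-cell set.

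Of the gamma-tubulin ring complex and its recruiters, 1 of 11 rose, HAUS8 of the augmin complex that branches spindle microtubules (1.29, limma adjusted p = 0.0284), with a list median of 0.15, and 1 of 10 in the B-cell set. Among 33 genes of tubulin folding, modification and stability, CCT8, a subunit of the chaperonin that folds tubulin, rose (0.92, adjusted p = 0.0352) and STMN2, a neuronal stathmin that destabilises microtubules, fell (-4.06, adjusted p = 0.0435). Of 29 tested in the B-cell set, 5 rose and 1 fell. STMN1, the stathmin of dividing cells, was 1.23 higher in the 10 lymphomas (adjusted p = 0.0554) and rose by 1.25 in the B-cell set (adjusted p = 0.0174).

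Markers of proliferation and of other cells in the aspirates were followed too. Of 10 proliferation markers 1 rose, TOP2A (1.57, limma adjusted p = 0.0487), with a median of 0.88. The log2 of their summed signal was between 13.48 in NE41 and 15.00 in NE45 in lymphoma, against 13.17 to 13.69 on the normal arrays. NE41 thus lay within the normal range. For the mean of the mitotic kinesins NE45 was also the highest, but the lowest lymphoma was RB10, which was at 14.54 in the summed signal. Of 10 myeloid markers 7 fell, with summed signals between 13.01 and 15.35 in lymphoma and 15.01 to 16.18 on normal arrays. Of 4 endothelial markers 2 fell, with summed signals of 9.93 to 11.76 in lymphoma and 12.81 to 13.49 on normal arrays. Of 5 stromal markers 2 fell (summed signals 8.24 to 12.19, against 11.55 to 12.46). Of 3 neuronal markers STMN2 alone fell, and the summed signal of the neuronal list was 7.52 to 11.83, against 9.83 to 10.78. Sums are over all markers of a list on the array, tested or not. Within the B-cell set, 8 of 10 myeloid, 3 of 4 endothelial, 4 of 5 stromal and 2 of 3 neuronal markers fell and 3 of 9 proliferation markers rose. The part of these cells in the kinesin and tubulin values was not tested.

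T-cell and B-cell markers separated the classes. None of 9 T-cell and none of 6 B-cell markers passed in the 10 lymphomas, with medians of -0.86 and -0.92, whereas 4 of the 9 T-cell markers fell and 1 of the 6 B-cell markers rose in the B-cell set, which was chosen in part for this. The summed T-cell signal was 11.60 to 13.95 in class E-J and 15.67 to 16.15 in class K-N, against 13.89 to 15.04 on normal arrays, and the summed B-cell signal was 13.23 to 14.75 in class E-J and 7.87 to 11.30 in class K-N, against 12.28 to 13.13. Of the platelet markers 1 was tested and did not pass (summed signal of the list 6.34 to 8.00 in lymphoma, 6.37 to 7.03 on normal arrays). No marker had a signal of 0, since these signals are always above 0. KIF20B, TUBB2A and KIF3B differed between the same classes of lymphoma as these markers, and KIF15 did so only as averaged over its probe sets. The part of B and T cells in these differences was not tested.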

How the data were processed

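RNA from 14 lymph node samples was profiled with 1 GeneChip Canine Genome V2.0 array each. The RNA had been amplified with the WT-Ovation Pico system. The authors deposited 1 MAS 5.0 signal per probe set (program version not given in the sources used here), a linear intensity that they scaled on every array to a trimmed mean of 500. The arrays were profiled in batches, and which array was in which batch is not given in the sources used here, so batch could not be fitted. Depth has no meaning for arrays, and the number of arrays limits the precision.

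Signals were taken to log2. Of 43035 probe sets, 29254 with exactly 1 symbol in the platform annotation and no control role were averaged as log2 values to give 15115 genes. A gene entered a comparison if its signal reached 100 on 3 or more of the arrays compared. Tests were run with limma 3.58.1 in R 4.3.3 (lmFit, eBayes) over the whole table, p-values were adjusted by Benjamini-Hochberg, and the threshold was 0.05. Differences are tested minus normal, or B-cell minus T-cell, and 3024l and 3024r were averaged into 1 dog in the comparison of all lymphomas. The normal arrays are shared by 2 of the 3 comparisons. The test was checked on simulated data with known changes. Alternatives changed the filter, scaling, pseudocount, floor, gene summary, test and arrays, and each array was left out in turn. Welch's t-test, which the study's methods name, is called the methods' t-test. It was run here at the threshold of 0.05 on the genes tested here. The study used a looser threshold, on genes detected by both arrays and sequencing.

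The members, the gene lists (mitotic, transport and other kinesins, alpha-, beta- and gamma-tubulins, transport and spindle partners, gamma-tubulin ring complex, tubulin folding, proliferation, and T-cell, B-cell, myeloid, endothelial, stromal, platelet and neuronal markers) and the tests were chosen with earlier results of these data known. Values per array are given for members that passed in any comparison, the 3 of each role group with the smallest p in the 10 lymphomas, and those with no overlap between class E-J and both other sets; of each partner list up to 4 genes with the smallest p are named. Members named beyond this were chosen after their values were seen. The RNA sequencing data and detection calls were not used. Plots were made in Python 3.11.15 with matplotlib 3.10.9.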

Additional observations from a re-analysis of the deposited data

Results flagged for a closer look

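Each named member was checked over the 7 arrays labelled B-cell lymphoma and over the 4 normal arrays. Of these 30 sets, 3 held 1 array far from the rest, where chance gives about 1 in 20 for independent arrays. The normal arrays 3024l and 3024r are from the same dog, and the T-cell lymphomas were not checked. KIF13A was at 2.26 on the log2 scale in 3024l, while the other normal arrays lay between 7.11 and 7.57. KIF26A was at 4.01 in 63, with the other normal arrays between 6.62 and 6.70. TUBA8 was at 1.74 in FS21, with the other B-cell lymphomas between 6.13 and 7.50.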

How the results depend on the processing

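Members that rose in the 10 lymphomas numbered 2, and 0 without the filter or with arrays centred on their median, 4 after quantile normalization, 5 with signals floored at 100 or averaged before the log, 1 with the highest probe set per gene, 4 by the methods' t-test, and 1 with 3024l for its dog. Leaving out 1 array gave 0 to 3, with none lower, and a mitotic median of 1.21 to 1.42. In the B-cell set 5 members rose, and 1 without the filter, 8 with the floor or the linear average, 0 by the methods' t-test, 1 with 3024l for 3024r and 3 in a fit of all 14 arrays. None fell there, and 1 did with a filter at 200, with 50 added before the log, with the floor and with the linear average. Leaving out 1 array gave 0 to 4 higher, 0 to 1 lower and a mitotic median of 1.24 to 1.56. That median was 1.41, and 0.93 with 50 added and 1.04 with the floor. Between B-cell and T-cell lymphoma no member passed when any 1 array was left out, and the mitotic median was -0.61 to -0.13. Without RB07, RB10 and FS22 that median was -0.41. The labels then follow the classes drawn from these profiles, so no calls of that fit are given. Over single members and settings, 891 values kept their side of the threshold, 50 lost the call and 15 gained it. No value that was called in the main fit or in the changed fit turned round. A change of direction between fits that both missed the threshold was not counted, and stays among the 891. The median difference of all genes was -0.03 in the 10 lymphomas and -0.06 in the B-cell set, and 0.07 and 0.09 with arrays centred on their median, while that of the mitotic kinesins was 1.45 and 1.56 in the same fits.

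Genes called in all were 341 in the 10 lymphomas, and 112 without the filter, 744 with 50 added, 959 with the floor, 557 with the linear average, 893 by the methods' t-test and 197 with 3024l. In the B-cell set they were 902, and 193, 1613, 1807, 1424, 8 and 232 under the same changes, and 477 in a fit of all 14 arrays. With 1 lymphoma left out they were 228 to 445 and 593 to 1207, and with 1 normal array left out 3 to 469 and 15 to 70. The cause of these shifts was not tested. No paired analysis was possible because lymphoma and normal samples came from different dogs and their replicate numbers tie no sample of one to a sample of the other. The small normal group, the dim TUBA8, KIF14, KIF4A, KIF5A and KIF5C and the shared tubulin probe sets limit what these arrays can show.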

Other observations

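Besides the probe sets averaged here, 2 probe sets carry 8 symbols each, TUBA1C among them, and were left out of the gene value. Their log2 signals ran from 1.31 to 6.40 and from 1.53 to 7.49 over the 14 arrays.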
